A study of Drosophila melanogaster with 33 samples.

Results

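Embryos of the fruit fly strain Oregon R, a wild type, received 5-ethynyl uridine (5-EU) by injection. RNA made afterwards takes up this analogue of uridine, so it can be given a biotin tag and caught on streptavidin. Described here are 199 genes whose symbol is CR followed by digits alone, of 2362 such genes and of 16407 genes in all. They were chosen from the poly(A) eluates: the mean of the 250 mM and the 50 mM library, each scaled to a total of 1000000, was 5 or more at syncytial blastoderm or at cellular blastoderm. That level was reached by 124 genes at syncytial blastoderm and by 158 at cellular blastoderm, with 83 reaching it at both. The eluate values at these stages therefore chose the genes and are given as a description with no test. Just inside the threshold stood CR46128, at 5.02 per 1000000 at cellular blastoderm, and CR42767, at 5.05. Just outside it stood CR44291, at 4.98 at syncytial blastoderm, and CR44994, at 4.99 at cellular blastoderm.

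From each preparation came an eluate (RNA caught on the beads, with any background), the flow-through left over and a sample of the input taken as total RNA. The 21 poly(A) libraries came from 7 preparations of embryos staged by shape: 1 at nuclear cycles (NC) 7-9, 2 at NC 9-10, 2 at syncytial blastoderm and 2 at cellular blastoderm. The dose of 5-EU was 250 mM, and 50 mM in the second preparation of either blastoderm stage, so dose and replicate cannot be told apart there. The other 12 libraries were depleted of rRNA, with 1 preparation per stage at 250 mM. All groups share the strain, the injection and the bulk RNA of whole embryos, and nothing in the labels says that replicates came from separate collections, so p-values measure the spread between these libraries. In bulk samples fewer cells of a type and less RNA per cell cannot be told apart.

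FlyBase gives CR symbols to genes without a known protein, mostly long non-coding RNAs (lncRNAs) and antisense RNAs. A fly egg is loaded with RNA by the mother. The embryo's own genome is silent at first, is read at a small set of mostly short genes during the early nuclear cycles and then widely around cellularisation, while much of the maternal RNA is removed. Labelling is meant to set RNA made in the embryo apart from RNA that was already there, which total RNA cannot do. The eluates here also held maternal transcripts, with values given below. The series asks which transcripts the zygotic genome makes in this window.

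Levels below are per gene length, as the authors' RPKM-type values allow, after taking off the 1 that had been added, scaling each library to 1000000 and dividing by the median of ratios between libraries. They are called units. Estimated from the steps between low values, libraries held 1.93 M to 36.9 M reads (M, 1000000), and the poly(A) eluates 4.23 M to 27.8 M. In the 2 eluates of its better stage a CR gene had a median of 169 estimated reads, with 7 of the 199 genes under 20 and a highest value of 50630, in CR42862. As a check of the labels, 26 of 26 tested early zygotic coding genes (such as eve, ftz, sna and nullo) rose in the cellular blastoderm input against NC 9-10, and 10 of 14 maternal transcripts (such as bcd, nos and CycB) fell (limma, adjusted p below 0.05). These 14 summed to 7366 units in the NC 7-9 eluate, against 6956 in the input. At NC 9-10 they summed to 7471 to 7983 units in eluates, against 7012 to 7886 in inputs. At cellular blastoderm the sums were 2113 to 2242 units, against 3270 to 3277. A value in an early eluate is therefore not by itself a sign of newly made RNA. Markers of follicle cells summed to 1.65 to 2.94 units in cellular blastoderm eluates and 0 to 2.31 in inputs, with Cp36, Cp38 and Vm34Ca listed at 0 in all of these libraries. Of the 5 pole cell markers (nos, gcl, osk, vas and aub), 4 fell in the cellular blastoderm input. All 5 summed to 355 to 369 units there, against 1858 to 2334 at NC 9-10 and 1967 at NC 7-9. The genes nos, gcl and osk are also among the 14 maternal transcripts. A fall in pole cell RNA and the loss of maternal RNA cannot be told apart here. The 4 markers of older embryo tissues summed to 5.51 to 20.9 units in cellular blastoderm inputs, against 0.0790 to 0.705 at NC 9-10, and to 24.8 to 113 units in cellular blastoderm eluates. Their part in the results below was not tested.

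All 199 genes matched the annotation, which lists 139 as lncRNA and 60 as antisense RNA. The antisense share was 30.2%, against 19.7% of the other CR genes in the annotation. Their exons summed to a median of 813 bp, against 650 bp in the other CR genes, and 55.8% had a single exon, against 65.7%. They lay among other genes more often: 28.1% overlapped no gene on either strand, against 52.8% of the other CR genes. By chromosome, 58 were on 3L, 39 on 3R, 35 on X, 35 on 2R, 29 on 2L and 3 on 4. The share on 3L was 29.1%, against 22.2% of the other CR genes, and the share on 2L was 14.6%, against 26.4%.

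Overlap limits what a value can be tied to. Exons of 85 of the 199 genes overlap exons of a gene on the opposite strand, and exons of 26 overlap those of a gene on the same strand. The kit keeps the strand, per the labels' protocols, but the strand setting of the counting is not given in the sources used here. Of the 47 CR genes whose exons lie wholly under opposite-strand exons, 35 had a value above 0 in a poly(A) library. Of the 13 whose exons lie wholly under same-strand exons, 2 did. CR42491, CR44133, CR45197 and CR45939 have 50% or more of their exonic length under same-strand exons, and their values are uncertain.

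Before the blastoderm stages, the genes fell into a large set that was absent and a smaller set that was present. In the single NC 7-9 poly(A) input, 140 of the 199 genes (70.4%) were below 1 unit and 59 were at 1 or more. They are called absent and present at NC 7-9 below. RNA present at that stage is mostly maternal, but the label alone does not say so for a given gene. Of 6877 protein-coding genes that reach the same eluate level, 820 (11.9%) were absent by the same measure. That level is a floor, and coding genes called at the same level below passed it but were not matched in level above it. Of the 199 CR genes, 73 (36.7%) reached a level of 10 in eluates at no stage, against 353 (5.13%) of the coding genes. The part of level in the gap between 70.4% and 11.9% was not tested. In all 3 inputs before syncytial blastoderm 91 of the 199 genes were listed at 0, and 75 were listed at 0 in those inputs and in all 3 eluates.

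The heat map shows all 199 genes, with its line drawn by the NC 7-9 input. It is therefore no separate test of the split, and the rule itself required values in blastoderm eluates. Above the line, the absent genes are mostly dark at NC 7-9 and NC 9-10, then appear in the eluates. In the NC 7-9 eluate 3 of these 140 genes reached a level of 2 per 1000000. Below the line, the present genes are seen in the NC 7-9 input by their definition, and some drop to or near the floor in single libraries elsewhere.

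**Figure D1:**
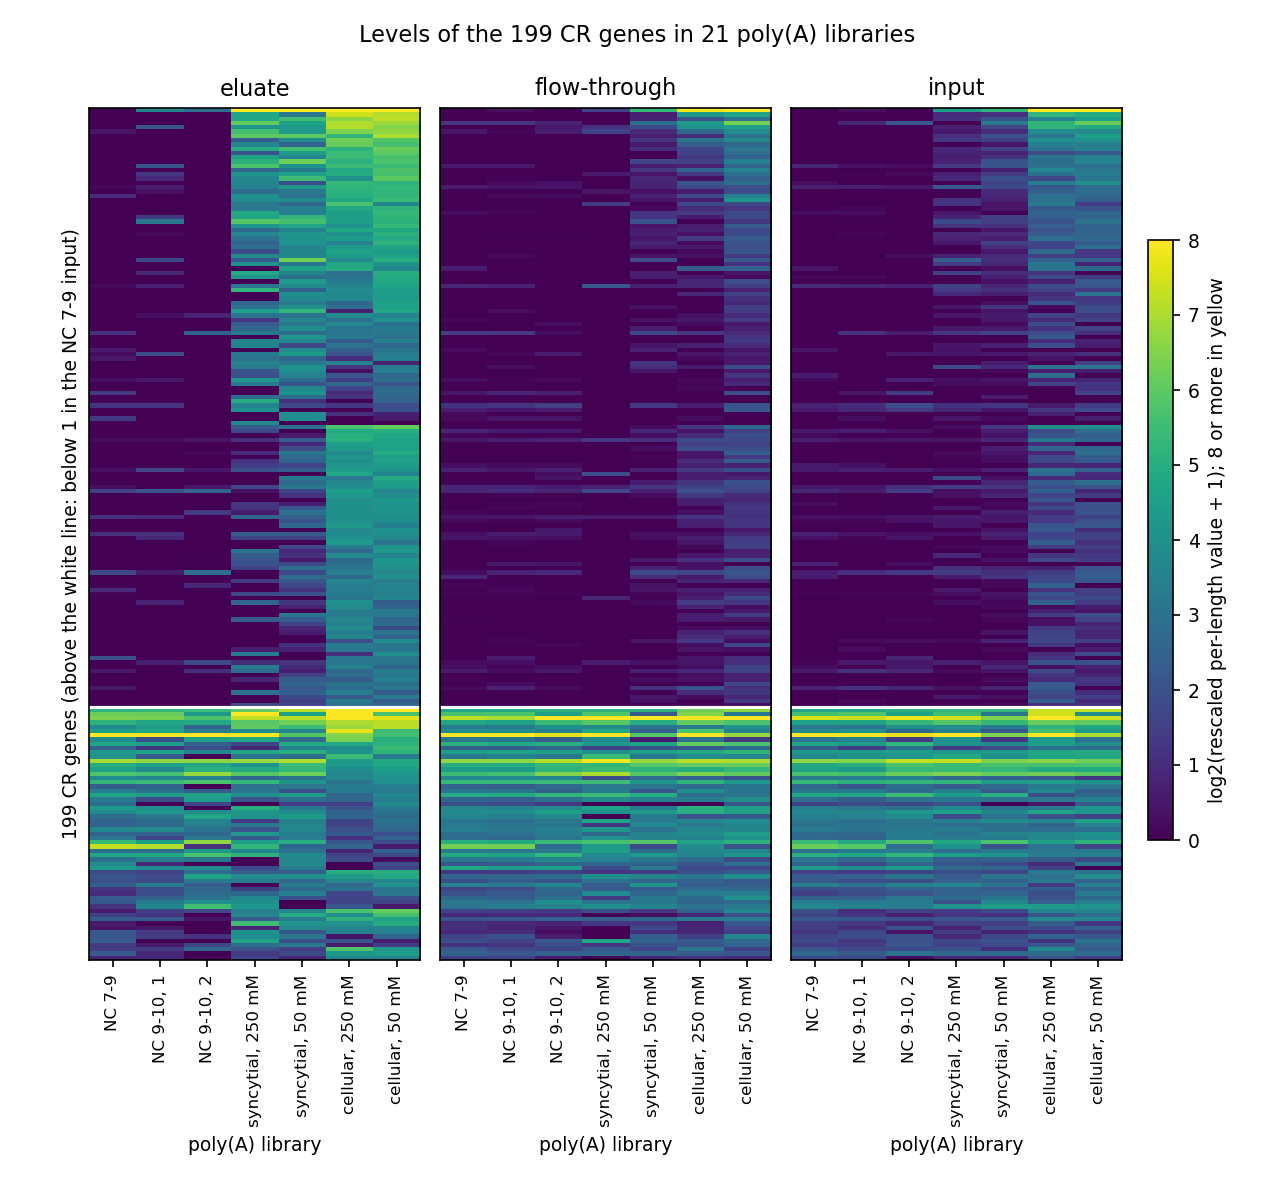
Each row is 1 of the 199 CR genes and each column 1 of the 21 poly(A) libraries, by fraction and stage, coloured by log2(units + 1) with 8 or more at the top of the scale. The 140 genes above the white line were below 1 unit in the NC 7-9 input; rows are ordered by the first stage at 5 per 1000000 in the eluate and then by the cellular blastoderm eluate.

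The first stage at which the mean eluate reached 5 per 1000000 was NC 7-9 for 38 genes, NC 9-10 for 10, syncytial blastoderm for 82 and cellular blastoderm for 69. All 38 genes at NC 7-9 were present in the input there, as were 9 of the 10 at NC 9-10. By the same measure 14 of 14 maternal transcripts and 97.8% of the present coding genes at the same level began at NC 7-9. For present genes the measure therefore does not date the start of transcription. Among the 140 absent genes, 1 began at NC 9-10, 73 at syncytial blastoderm and 66 at cellular blastoderm. The split depends on the level: at 2 per 1000000 the 140 genes began at NC 7-9 in 3 cases, at NC 9-10 in 4, at syncytial blastoderm in 101 and at cellular blastoderm in 32. At a level of 10 the first 3 stages had 0, 1 and 34, cellular blastoderm had 46 and 59 genes did not reach it. At the level of 5 the gene at NC 9-10 was CR43887, named here after its values were seen. Of the 820 absent coding genes at the same level, 9 began at NC 7-9, 61 (7.44%) at NC 9-10, 324 at syncytial blastoderm and 426 at cellular blastoderm. Of 27 early zygotic coding genes, 18 began at NC 9-10. Since a mean of 5 at a blastoderm stage was the rule itself, all genes had to begin by cellular blastoderm.

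CR43887 had the highest mean eluate of the 199 genes at both blastoderm stages. It is a single-exon lncRNA gene of 527 bp on 3L, 11693135 to 11693661 (plus strand, dm6 coordinates in the BDGP6.54 annotation), 218 bp from Dph1, whose product acts in diphthamide synthesis. Its eluates held 0 units at NC 7-9, 11.8 and 6.57 units at NC 9-10, 581 and 748 at syncytial blastoderm and 1013 and 1050 at cellular blastoderm. Its inputs held 0 units at NC 7-9, 0.247 and 0 at NC 9-10, 21.9 and 38.7 at syncytial blastoderm and 301 and 255 at cellular blastoderm. From NC 9-10 on, both eluates stood above both inputs of the same stage. Among all 16407 genes it ranked 208 in the syncytial and 154 in the cellular blastoderm poly(A) eluates. In total RNA CR43887 was 4.75 (log2, SE 0.86) higher at syncytial blastoderm than at NC 9-10 (limma, adjusted p = 0.00574) and 7.96 (log2, SE 0.86) higher at cellular blastoderm than at NC 9-10 (adjusted p = 1.85e-05). Without the second NC 9-10 input or the second syncytial blastoderm input, the log2 difference for CR43887 between syncytial blastoderm and NC 9-10 was 4.59 or 4.36 and did not pass the test.

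CR42862, a 3-exon lncRNA gene of 5485 exonic bp on 3L, 224106 to 230964 (plus strand), was present from the start and rose further. Its eluates held 35.4 units at NC 7-9, 37.6 and 40.1 at NC 9-10, 66.1 and 143 at syncytial blastoderm and 628 and 824 at cellular blastoderm. Its inputs held 24.7 units at NC 7-9, 27.1 and 32.6 at NC 9-10, 37.4 and 37.8 at syncytial blastoderm and 159 and 150 at cellular blastoderm. The eluates exceeded both inputs at each stage from NC 9-10 on, and by the widest margin at cellular blastoderm. Total RNA of CR42862 was 2.34 (log2, SE 0.31) higher at cellular blastoderm than at NC 9-10 (limma, adjusted p = 7.75e-05). CR42862 overlaps the coding gene CG33229 on the same strand, with 4.5% of its exonic length under same-strand exons. CG33229 averaged 647 units in cellular blastoderm eluates and 164 in inputs. Whether reads were shared between CR42862 and CG33229 was not tested.

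CR44931 and CR45559 lie near Antp, the Hox gene of the thorax, on 3R (6877678 to 6885278 and 6892918 to 6893462, both minus strand), 10975 and 2791 bp from it. CR44931 eluates held 0 units at NC 7-9 and in both NC 9-10 libraries, 26.5 and 8.12 at syncytial blastoderm and 169 and 134 at cellular blastoderm. Its inputs held 0 units in the 3 earlier libraries, 0.981 and 1.10 at syncytial blastoderm and 37.2 and 29.6 at cellular blastoderm. CR45559 had the same shape at a lower level, with 69.5 and 49.0 units in cellular blastoderm eluates, against 10.3 and 9.63 in inputs. Both rose in total RNA between NC 9-10 and cellular blastoderm, CR44931 by 5.10 (log2, SE 0.43, adjusted p = 3.27e-06) and CR45559 by 3.46 (log2, SE 0.37, adjusted p = 1.65e-05, both limma). Antp itself averaged 50.1 units in cellular blastoderm eluates and 9.57 in inputs.

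CR43432, now listed as lncRNA:marge, lies on 3L (14976626 to 14977631, minus strand) 586 bp from Ocho, a Bearded family inhibitor of Notch signalling. Its eluates held 0 units at NC 7-9, 3.40 and 0 at NC 9-10, 17.8 and 19.7 at syncytial blastoderm and 135 and 90.5 at cellular blastoderm. Its inputs held 0 units in the 3 earlier libraries, 0.678 and 2.19 at syncytial blastoderm and 36.5 and 28.3 at cellular blastoderm. At NC 9-10, 1 of the 2 CR43432 eluates was above 0 and neither input was. Its total RNA rose by 5.05 (log2, SE 0.58) at cellular blastoderm against NC 9-10 (limma, adjusted p = 2.91e-05).

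**Figure D2:**
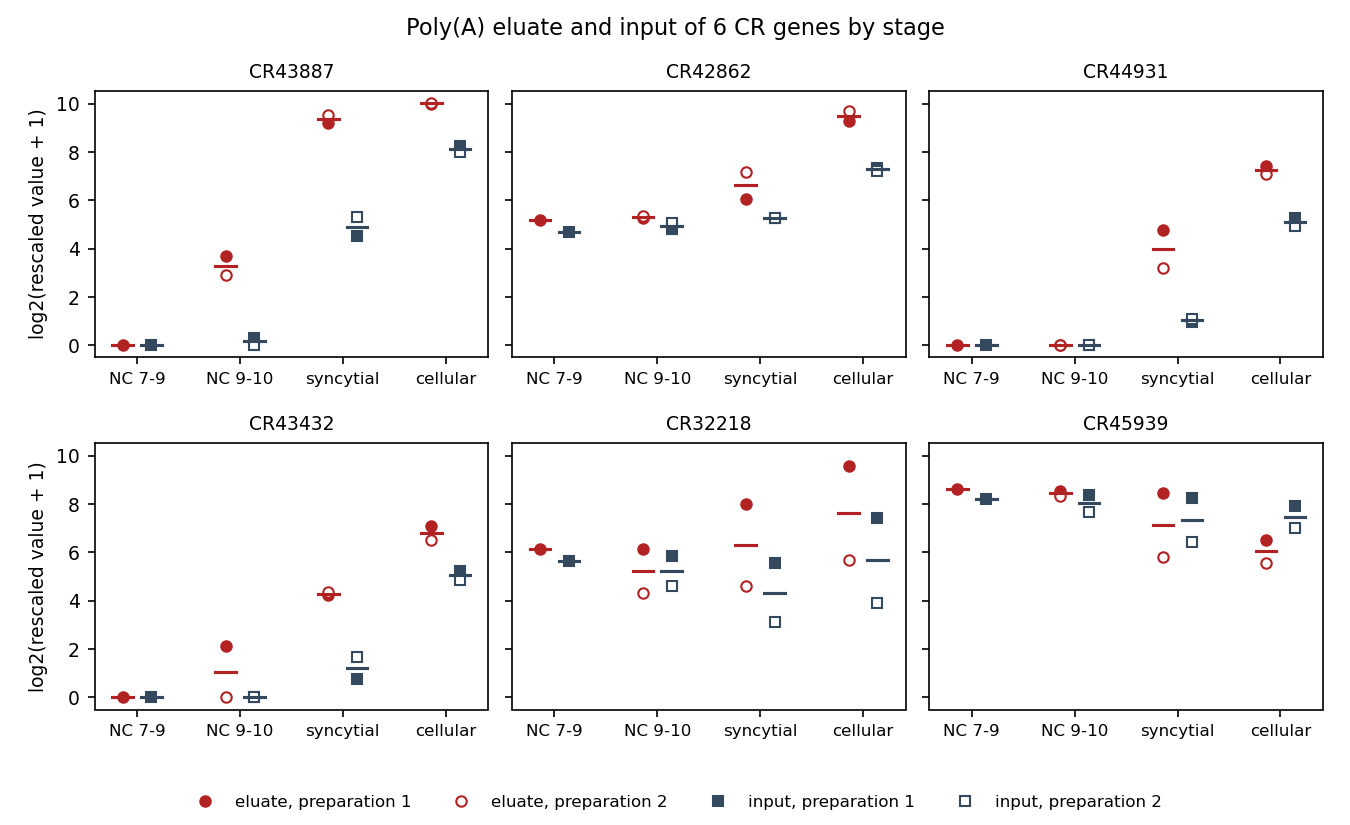
Poly(A) eluate (red circles) and input (dark squares) of 6 CR genes by stage, as log2(units + 1); filled symbols are the first preparation, open symbols the second (50 mM at syncytial and cellular blastoderm), and bars mark the mean. CR43887, CR44931 and CR43432 stand higher in eluates than in inputs at syncytial and cellular blastoderm. CR32218 and CR45939 differ between preparations in both fractions.

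Eluate was then set against input. At NC 9-10, where the eluates did not enter the rule, 0 of the 198 CR genes tested were higher in eluate and 0 lower, against 0% of the 8744 genes tested in each direction (limma, adjusted p below 0.05). At an unadjusted p below 0.05, 3 CR genes were higher and 3 lower, against 137 and 261 genes in all. The 2 NC 9-10 eluates differed widely, with sums of 287 and 1633 units over 27 early zygotic coding genes. The gene not tested was CR45313, which had 12.6 units in the 250 mM syncytial blastoderm eluate and was listed at 0 in all other libraries. The eluates that chose the genes could also carry them past the filter on low values. CR43887 was 3.14 (log2, SE 0.86) higher in NC 9-10 eluate than input, with adjusted p = 0.506. CR43461, on X, had 0.886 and 0 units in NC 9-10 eluates, against 3.86 and 7.53 in inputs, a log2 difference of -2.23 (SE 0.35, adjusted p = 0.0894). With the preparation as a block CR43461 passed, with adjusted p = 0.0484, and the counts were then 0 higher and 1 lower, against 0.206% and 0.114% of all genes tested in the same fit. It also passed without the first NC 9-10 eluate (adjusted p = 0.0357).

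By a plain rule of size, at least 2-fold between the means with no overlap of the libraries, 6 CR genes were higher and 18 lower in NC 9-10 eluate than input, against 2.12% and 5.4% of all genes tested. Only CR43887 and CR45165 of the 6 averaged 5 or more units in eluate. Of the 18, only CR40469, CR43461 and CR45818 averaged 5 or more units in input. The input mean was below 1 unit in 6 of the 18, and 10 of the 18 were absent genes, so many of these values lie near 0. CR45165, which overlaps Nedd4 (a ubiquitin ligase gene) on 3L, had 11.8 and 45.5 units in NC 9-10 eluates, against 10.6 and 9.10 in inputs. Its NC 7-9 eluate held 1.28 units, against 12.1 in the input, so the first stage went the other way. Early zygotic coding genes passed the rule in 24 of 26 cases at NC 9-10.

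At NC 7-9, with 1 library per fraction and hence no test, 3 of 198 CR genes had 5 or more units in eluate and at least 2-fold the input, against 0.423% of all genes tested. They were CR45102, CR45566 and CR45969, all present in the input and named after their values were seen. The reverse held for CR40469, CR42861, CR44599 and CR45165, against 0.618% of all genes tested. None of the absent genes was in the first count, while 8 of the 819 absent coding genes tested were. No absent gene could be in the second count, which needs 5 or more units in the NC 7-9 input.

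At the blastoderm stages the same size rule gives a description, since these eluates chose the genes. At syncytial blastoderm 98 of the 198 CR genes were higher in eluate than input and 3 were lower, against 15.9% and 4.23% of all genes tested and 13.9% and 2.75% of coding genes chosen by the same level. At cellular blastoderm 144 were higher and 14 lower, against 41.5% and 16.9% of all genes tested and 37.8% and 18.7% of those coding genes.

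The level in the NC 7-9 input divided the genes further. Of the absent genes, 88 of 139 were higher in eluate at syncytial blastoderm and 126 at cellular blastoderm, with 80 higher at both. These were 63.3% and 90.6% of the absent CR genes, beside 78.1% and 96.2% of the absent coding genes at the same level. None was lower at cellular blastoderm. Their median log2 eluate over input was 1.87 at syncytial and 2.20 at cellular blastoderm, beside 2.08 and 2.20 for the absent coding genes at the same level. Of the 59 present genes, 10 were higher at syncytial blastoderm (16.9%), while at cellular blastoderm 18 were higher (30.5%) and 14 lower (23.7%). Of the present coding genes, 5.25% were higher at syncytial blastoderm, and 29.9% were higher and 21.2% lower at cellular blastoderm. Their median was 0.23 at syncytial and -0.19 at cellular blastoderm, beside -0.01 and 0.12 for the present coding genes. The box plot of these ratios shows the absent CR and absent coding genes close to each other at cellular blastoderm, and the present genes of both kinds spread on both sides of 0.

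**Figure D3:**
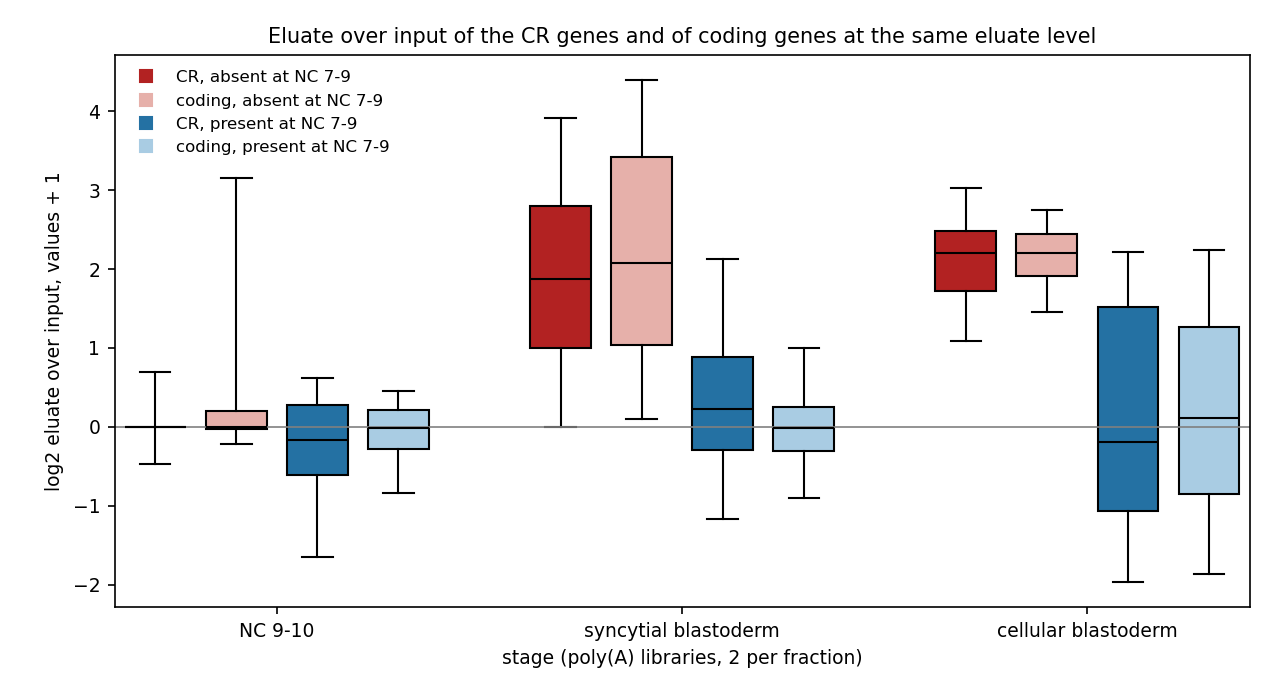
Boxes give the quartiles and median, and whiskers the 5th and 95th percentiles, of log2 eluate over input (units + 1) at 3 stages for CR genes and for protein-coding genes that passed the same eluate level, split by the NC 7-9 input. At NC 9-10 all medians lie near 0; at cellular blastoderm absent CR genes have a median of 2.20.

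The highest ratios at cellular blastoderm belonged to genes that were scarcely seen in input. CR45940, overlapping nkd (an inhibitor of Wnt signalling), had 21.7 and 24.1 units in cellular blastoderm eluates, against 0.963 and 0 in inputs. CR45153, overlapping retn (an ARID family transcription factor gene), had 41.7 and 61.9 units in eluates, against 2.65 and 3.53 in inputs. CR45869 had 6.68 and 16.6 units in eluates and was listed at 0 in both inputs. CR44564, CR45390 and CR46262 followed in that order, with eluates of 6.39 to 31.0 units, against 0 to 1.29 in inputs. CR45869 lies wholly under opposite-strand exons, those of ERR, a nuclear receptor gene, and 90% of the exonic length of CR46262 lies under opposite-strand exons.

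The lowest ratios belonged to genes seen from NC 7-9 on. CR45165 had 3.52 and 0.495 units in cellular blastoderm eluates, against 20.4 and 16.4 in inputs. CR45433, 533 bp from Papss (a sulphate donor synthase gene), had 3.37 and 2.49 units in eluates, against 22.5 and 35.5 in inputs, although its NC 9-10 eluates had held 21.7 and 99.3. CR43836 had 11.8 and 16.9 units in eluates, against 76.2 and 61.3 in inputs. CR46064 had 1.20 and 4.69 units in eluates, against 12.2 and 13.5 in inputs. CR43973, overlapping Ctps (the CTP synthase gene), had 18.7 and 27.4 units in cellular blastoderm eluates, against 96.5 and 75.7 in inputs. At NC 9-10 its eluates had held 102 and 95.9 units, against 88 and 152 in inputs. In each of these 5 genes both eluates fell below both inputs at cellular blastoderm, and none of their inputs fell between NC 9-10 and cellular blastoderm by the test.

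Some genes differed between preparations in both eluate and input. CR32218, a single-exon gene overlapping Mi-2 (a chromatin remodeller gene) on 3L, had 770 and 50.8 units in the first and second cellular blastoderm eluate and 172 and 14 in the inputs of the same preparations. At syncytial blastoderm CR32218 had 259 and 23.6 units in eluates and 45.8 and 7.58 in inputs. CR45102, 185 bp from Mnt (a gene for an antagonist of Myc) on X, had 155 units in the NC 7-9 eluate and 70.5 in the input. Its NC 9-10 eluates held 133 and 1.21 units and its inputs 59.1 and 6.28. CR32218 had 69.2 and 19.1 units in NC 9-10 eluates and 56.1 and 23.2 in inputs. Both NC 9-10 preparations had the same dose, so the gaps at that stage arose without a difference in dose. At the blastoderm stages the preparations differed in dose, and its part in the gaps there was not tested. A gap of at least 4-fold in the same direction in both eluate and input was found in CR45102 at NC 9-10. At syncytial blastoderm it was found in CR32218, CR44092 and CR45102, and at cellular blastoderm in CR32218. Such gaps were not counted over all genes. CR45939, with 89.9% of its exonic length under same-strand exons of ftz-f1 (a nuclear receptor gene), had the highest mean eluate at NC 7-9 and NC 9-10, with 392 units in the NC 7-9 eluate and 299 in the input at NC 7-9. Its cellular blastoderm eluates held 90.2 and 46.7 units, against 244 and 128 in inputs.

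The 250 mM eluate was the higher one in 68 of the 199 genes at syncytial blastoderm and in 68 at cellular blastoderm, and the 250 mM input in 66 and 94. Eluates alone differed by at least 4-fold between the preparations in 46 genes at syncytial blastoderm and 16 at cellular blastoderm, and inputs in 4 and 10. None of the counts in this paragraph was made over all genes, so they say nothing particular to the CR genes. The 50 mM syncytial blastoderm eluate was also the shallowest poly(A) eluate, at 4.23 M estimated reads, against 19.9 M in the 250 mM library. Of the 124 genes that reached the level at syncytial blastoderm, 16 had 0 in 1 of the 2 eluates, and none of the 158 at cellular blastoderm did. CR45725 had 30.1 and 1.20 units in the syncytial blastoderm eluates and CR44937 0 and 13.5, so each rests on 1 library.

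In total RNA the CR genes were measured apart from the pull-down. The inputs did not enter the rule, but they came from the same preparations as the eluates that chose the genes, so a rise was favoured by the choice. Between NC 9-10 and syncytial blastoderm, 2 of 198 CR genes rose and 0 fell, against 1.77% and 5.79% of all genes tested (limma, adjusted p below 0.05). These were CR43887 and CR46194, the second of which overlaps SmD3, a spliceosome subunit gene. CR46194 inputs held 3.64 and 2.60 units at syncytial blastoderm, against 0.607 and 0.446 at NC 9-10, a log2 difference of 1.42 (SE 0.36, adjusted p = 0.0308). CR46194 did not pass when any 1 of the 4 inputs was left out. The count was 1 without the first NC 9-10 or the first syncytial blastoderm input and 0 without the second of either.

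By cellular blastoderm 89 of 198 CR genes had risen in total RNA against NC 9-10 and 4 had fallen, against 27.6% and 21.3% of all genes tested. The median log2 difference over the CR genes was 1.23, beside 0.31 over all genes tested. The scaling matters for these backgrounds: with each library scaled to 1000000 alone, the median over all genes was -0.01 and 14.1% rose and 27.7% fell, while 81 CR genes rose and 5 fell. Of the absent genes 84 of 139 rose, as did 672 of 819 absent coding genes. Of the 59 present genes, 5 rose (8.47%) and 4 fell (6.78%), beside 23.9% and 28.6% of the present coding genes at the same level.

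Besides CR43887, CR44931 and CR43432, the largest rises were in CR43264 and CR45258. CR43264, overlapping CG15765 on X, had 36.6 and 69.5 units in cellular blastoderm inputs, against 0.819 and 3.55 at NC 9-10. CR45258, on 2L 10706 bp from dnt (a Wnt receptor family gene), had 15.1 and 16.3 units, against 0 and 0. The rise was 4.16 (log2, SE 1.11, adjusted p = 0.00874) for CR43264 and 4.06 (log2, SE 0.48, adjusted p = 3.44e-05) for CR45258 (limma). CR43264 no longer passed without the first NC 9-10 or the second cellular blastoderm input, where its log2 difference was 3.50 or 3.71.

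The 4 genes that fell were all present at NC 7-9. Absent genes, chosen for a low NC 7-9 input, had little room to fall, and 0 of 819 absent coding genes fell. CR44833 had 1.88 and 0 units in cellular blastoderm inputs, against 14.2 and 19.8 at NC 9-10, a log2 difference of -3.39 (SE 0.67, limma adjusted p = 0.00138). CR43685 had 2.83 and 5.43 units, against 24.9 and 43.7, a log2 difference of -2.77 (SE 0.43, limma adjusted p = 0.000263). CR43767, with 89.1% of its exonic length under opposite-strand exons of Tango14, had 3.79 and 1.44 units, against 9.70 and 10.3. CR32027, overlapping Indy (a citrate transporter gene), had 9.24 and 9.86 units, against 26.9 and 38.3. CR32027 did not pass without the second NC 9-10 input, where its log2 difference was -1.41. In CR43767 the cellular blastoderm eluates held 12.9 and 15.4 units, above both inputs of that stage.

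Against syncytial blastoderm, 59 CR genes rose and 1 fell in total RNA at cellular blastoderm, against 16.8% and 13.9% of all genes tested. The gene that fell was CR43685. The count of rises was 38 without the first cellular blastoderm input and 33 without the first syncytial blastoderm input.

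The flow-through gave fewer changes. Between NC 9-10 and cellular blastoderm, 44 CR genes rose and 3 fell in unbound RNA, against 25.3% and 23.2% of all genes tested. The median log2 difference was 0.69, beside 0.23 over all genes tested. Scaled to 1000000 alone, 26 CR genes rose and 4 fell, against 7.83% and 30.7% of all genes. The count of rises was 26 or 28 without the first or second NC 9-10 flow-through and 22 without the second from cellular blastoderm. CR43887 led again, with 225 and 369 units in cellular blastoderm flow-throughs, against 0.216 and 0 at NC 9-10 (log2 difference 8.04, SE 0.86, limma adjusted p = 1.73e-05). CR40469, a 214 bp gene on X, rose in this fraction, with 701 and 819 units, against 126 and 275 (log2 difference 2.02, SE 0.50, limma adjusted p = 0.00527). Without the first NC 9-10 flow-through CR40469 did not pass, with a log2 difference of 1.46.

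**Figure D4:**
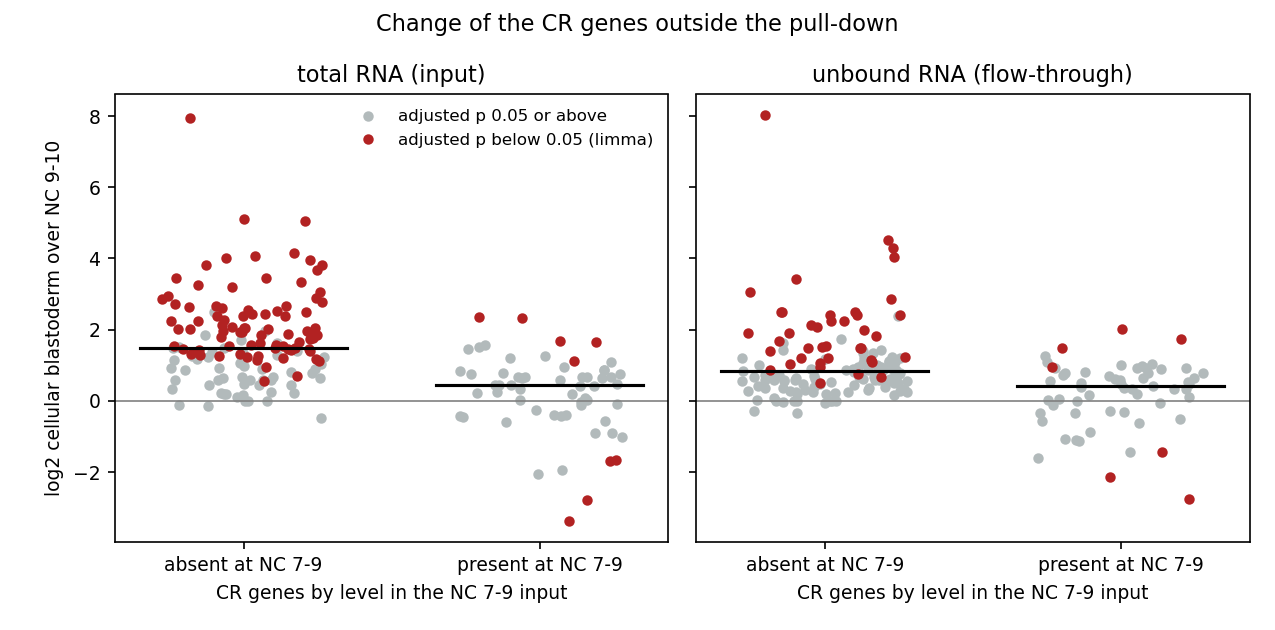
Each point is a tested CR gene, placed by its log2 change from NC 9-10 to cellular blastoderm in poly(A) input (left) or flow-through (right), for genes absent or present in the NC 7-9 input; sideways spread is for legibility and black bars are medians. Red points passed limma at adjusted p below 0.05: 89 rose and 4 fell in input, and 44 rose and 3 fell in flow-through.

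Summed over the 199 genes, the CR genes made up 1736 per 1000000 of the NC 7-9 eluate and 1491 and 1806 per 1000000 at NC 9-10. At syncytial blastoderm they made up 2778 and 3198 per 1000000, and at cellular blastoderm 5141 and 4980. The sums in inputs were 1627 at NC 7-9, 1576 and 1690 at NC 9-10, 1684 and 1246 at syncytial blastoderm and 2336 and 1649 at cellular blastoderm. The absent genes carried most of the growth in eluates, at 24.1 per 1000000 at NC 7-9 and 2904 and 3292 at cellular blastoderm. The present genes summed to 1712 per 1000000 at NC 7-9 and to 2237 and 1687 at cellular blastoderm. These sums over the genes of the rule had to be high at the blastoderm stages.

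The rRNA-depleted libraries did not enter the rule. They do not select for a poly(A) tail, and each stage has 1 library per fraction, so single stages have no test. Over all 4 stages 0 of the 175 CR genes tested were higher and 0 lower in eluate than input, against 0% of 8131 genes in each direction (limma with stage as a term, adjusted p below 0.05). At an unadjusted p below 0.05, 26 were higher and 7 lower, against 522 and 555 genes in all. All 26 were absent genes and all 7 were present genes. Of the absent coding genes at the same level 187 were higher and 0 lower, and of the present ones 255 and 477. Without the NC 7-9 eluate 9 CR genes passed as higher and 0 as lower, against 1.09% and 0.0984% of all genes tested in that fit. Among the 9 were CR43887 at 5.13 (log2, SE 0.74, adjusted p = 0.019) and CR45916 at 5.31 (log2, SE 0.88, adjusted p = 0.0265). The 24 genes left out by the filter on low values were all absent genes.

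At cellular blastoderm 126 of the 175 genes had 5 or more units in the rRNA-depleted eluate and at least 2-fold the input, against 38.8% of all genes tested, and 14 showed the reverse, against 19.6%. Of the 126 CR genes higher in poly(A) eluate and tested here, 115 were higher here too and 0 lower. Of the 14 lower in poly(A) eluate, 11 were lower here too and 0 higher. How often the 2 kinds of library gave the same call over all genes was not counted, so these counts say nothing particular to the CR genes. The 250 mM poly(A) and the rRNA-depleted libraries may share embryos, since the labels do not say.

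At syncytial blastoderm 73 genes were higher and 21 lower, against 19% and 20.5% of all genes tested. Of the 91 CR genes higher in poly(A) eluate at that stage and tested here, 51 were higher here and 2 lower, again with no count over all genes. This eluate was shallow, at 2.14 M estimated reads, and 85 of the 199 genes were listed at 0 in it. In the cellular blastoderm eluate, at 31.3 M, 8 were. At NC 9-10 19 genes were higher and 12 lower, against 8.71% and 9.59%. At NC 7-9 6 genes were higher and 9 lower, against 0.922% and 2.14%, all of them present genes.

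**Figure D5:**
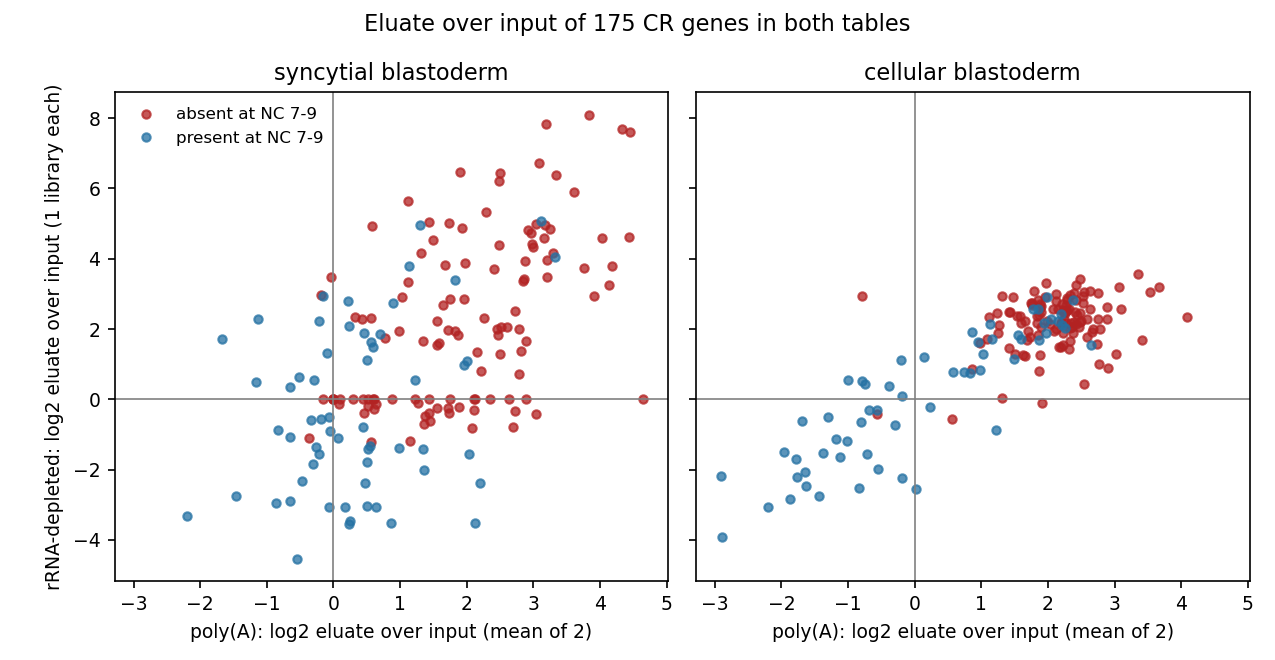
Log2 eluate over input (units + 1) of the 175 CR genes tested in both tables, poly(A) on the x axis (mean of 2 preparations) and rRNA-depleted on the y axis (1 library each), at syncytial and cellular blastoderm. Red points are absent and blue points present in the NC 7-9 poly(A) input; at cellular blastoderm most absent genes lie in the upper right, and 14 genes were at least 2-fold lower in the rRNA-depleted eluate.

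CR43887 had the highest rRNA-depleted eluate of the 199 genes at both blastoderm stages. It had 0 units at NC 7-9, 43.5 at NC 9-10, 9055 at syncytial blastoderm and 20160 at cellular blastoderm, where it ranked 4 among all 16407 genes. Its inputs held 0, 0.245, 45.6 and 3616 units at the same stages. The 199 genes made up 21760 per 1000000 of the cellular blastoderm eluate, of which CR43887 alone made up 14970, and 5974 per 1000000 of the input. The 2 tables were scaled apart, so their levels are given side by side with no comparison.

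At NC 9-10, 11 absent genes had 5 or more units in the rRNA-depleted eluate and at least 2-fold the input. They were 9.48% of the 116 absent genes tested, beside 8.71% of all genes and 12.4% of the absent coding genes. CR45916 had 27.2 units, against 0.0332 in the input. It lies 318 bp from Shal, a potassium channel gene, in a group with CR44677 and CR44676, which had 18.5 and 9.14 units in eluate, against 0 and 0 in input. CR45610, 37 bp from the pair-rule gene run, had 18.9 units, against 0, and CR44993, overlapping Df31 (a chromatin protein gene), 15.0 units, against 0. CR43432, CR44718, CR45270, CR43950 and CR42491 had 5.67 to 8.35 units, against 0 to 0.432. In the poly(A) eluates at NC 9-10 CR45916 had 1.70 and 0 units, CR45610 2.47 and 0, and CR44993 7.74 and 0. Each was thus seen in the first preparation and listed at 0 in the second. These 2 eluates also differed in other genes: 27 early zygotic coding genes summed to 287 units in 1 of them and to 1633 in the other. The first held 6.19 M estimated reads and the second 27.8 M.

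Among present genes CR40469 had the highest rRNA-depleted eluate from NC 9-10 on. It had 204 units at NC 7-9, 372 at NC 9-10, 1063 at syncytial blastoderm and 1961 at cellular blastoderm. Its inputs held 573, 277, 252 and 908 units. In poly(A) eluates it had 248 and 198 units at cellular blastoderm, against 381 and 171 in inputs, so the 2 fractions overlapped there.

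The named long non-coding RNA genes with symbols of their own (such as roX1, roX2, bxd and the Uhg snoRNA host genes) gave a further set of 23, which was listed with earlier results of these data known. Of the 17 tested, 7 rose and 1 fell in total RNA at cellular blastoderm against NC 9-10, with a median log2 difference of 0.73. By the size rule 11 of the 17 were higher in cellular blastoderm eluate than input and 1 lower, beside 144 and 14 of the 198 CR genes.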

How the data were processed

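The authors deposited RPKM tables for 21 poly(A) and 12 rRNA-depleted libraries, with 16407 genes each. Per the labels' protocols, the library kit was SMARTer Stranded. The submitters' processing notes name STAR, HTSeq and dm6, without versions. How reads were filtered, annotated and assigned to a strand is not given in the sources used here. In the values a gene with no read stands at exactly 1 and, with 1 taken off, 60.8% to 79.8% of low values (up to 30 steps) fell on whole multiples of a step per library within 0.02. Reads were estimated from these steps, and no count test or counting interval is given. Library totals as deposited were 1.31 M to 3.77 M (M, 1000000) in poly(A) eluates and 14.9 M to 33.2 M in inputs. For that reason the values were rescaled: after the 1 came off, a library was brought to a total of 1000000 and divided by a median-of-ratios factor (0.641 to 1.36).

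A gene was tested, on log2(units + 1), where 2 or more libraries of its table held at least 1 unit. This scale understates changes of low genes. The test was limma 3.58.1 in R 4.3.3 with a trend, adjusted by Benjamini-Hochberg across every tested gene. The 21 poly(A) libraries shared 1 model, with a mean for each pair of stage and fraction. The rRNA-depleted model had terms for fraction and stage. The fit was tested on simulated data. The titles tie eluate, flow-through and input to 1 preparation, and deviations of eluate and input from the stage mean correlated at 0.59 to 0.65 over genes. Symbols were matched to BDGP6.54 (release 115), 16337 of 16407 genes (99.6%), by symbol or synonym. No genome sequence was used here, and promoter letters were not searched.

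The 199 genes and the gene lists were chosen with earlier results of these data known. Named are the highest CR genes in each kind of eluate, the extremes of eluate over input at cellular blastoderm, the 5 largest called changes each way per test and the genes at the threshold; others, named where a count was small, as neighbours or for an overlap, were chosen after their values were seen. Python 3.11.15 with pandas 2.3.3 and numpy 2.4.6 made the summaries.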

Additional observations from a re-analysis of the deposited data

Results flagged for a closer look

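In 2 of the named genes eluate over input went opposite ways at syncytial and cellular blastoderm in both preparations, a difference that was not tested. CR43685 had 5.18 and 12.1 units in cellular blastoderm eluates, against 2.83 and 5.43 in inputs, while at syncytial blastoderm it had 15.0 and 20.3 units in eluates, against 20.8 and 32.4 in inputs. Its log2 eluate over input was 1.4 higher at cellular than at syncytial blastoderm. CR45102 had 5.24 and 0.514 units in cellular blastoderm eluates, against 7.19 and 2.10 in inputs, while at syncytial blastoderm it had 37.7 and 5.40 units in eluates, against 16.3 and 3.12 in inputs. Its log2 eluate over input differed by -1.61 between cellular and syncytial blastoderm. CR45102 is also a gene whose preparations differ by more than 4-fold.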

How the results depend on the processing

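Of 124 alternative values for the counts, 101 stayed within 1.5 times and 23 moved, and none of the 383 for single genes changed sign, while 47 no longer passed. Taken as deposited, 77 of 198 CR genes were lower in NC 9-10 eluate than input, against 6783 of all 8744 genes tested. In the rRNA-depleted set 1 of 175 was higher and 81 lower, against 3 and 6931 of all 8131 genes tested. Eluate totals as deposited are lower than input totals. With each library to 1000000 alone, 1 was lower in NC 9-10 eluate, 26 rose in flow-through and 4 fell in cellular against syncytial blastoderm input. Over all 8744 genes tested these counts were 4, 685 and 1762. With a filter at 5 units in place of 1, 2 CR genes fell in cellular against syncytial blastoderm input, against 1241 of 7385 genes. With all genes above 0 in 1 library, 1 CR gene rose in syncytial blastoderm input against NC 9-10, against 125 of 12572 genes. The replicate block gave 0 higher and 1 lower at NC 9-10; between stages no preparation is shared, and no paired analysis was possible because stages were collected apart. The rRNA-depleted fit has the block as its term for stage, and the counts without it were 0 and 0.

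Leaving out 1 library at a time, the counts lay between 0 and 1 (lower, NC 9-10 eluate), 0 and 1 (higher, syncytial blastoderm input against NC 9-10), 60 and 72 (higher, cellular blastoderm input against NC 9-10), 33 and 52 with 1 and 3 lower (cellular against syncytial blastoderm input), 22 and 54 (flow-through) and 0 and 9 (higher, rRNA-depleted). The lone library of an arm was then assumed to vary like the other groups. Counts over all genes moved in these fits too, and the cause of these moves was not tested. A level of 2 gave 377 genes, a level of 10 gave 116, both libraries at 5 or more gave 150 and the median of ratios gave 249. At low levels depth limits the values: 27 of the 199 genes had under 50 estimated reads in the 2 eluates of their better stage.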

Other observations

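Coding genes next to the CR genes were also set against the background. The 140 absent CR genes had 113 different nearest coding genes that were tested, of which 72 (63.7%) were at least 2-fold higher in cellular blastoderm eluate than input with no overlap, against 41.5% of all genes tested. Of these neighbours 45.1% were absent at NC 7-9, against 24.8% of all genes tested. The present CR genes had 48 such neighbours, of which 14 (29.2%) were higher in eluate and 4.17% were absent. Among neighbours that did not overlap the CR gene, 32 of 46 (69.6%) next to absent genes and 3 of 12 (25%) next to present genes were higher. Neighbours were not chosen by their own values, no test was made, and reads shared between overlapping genes were not tested as a part of this.

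Within 10 kb of each other, 44 of the 199 genes formed 21 groups. The group near Shal on 3L, CR44677, CR44676 and CR45916, had 15.8 to 61.9 units in cellular blastoderm eluates, against 2.19 to 11.1 in inputs, while Shal averaged 1.25 units in eluates and 0.263 in inputs. Between the Hox genes on 3R, CR42651, 6368 bp from Dfd, had 21.6 and 27.4 units in cellular blastoderm eluates, against 6.24 and 5.6 in inputs, and Dfd averaged 40.0 and 6.67. CR44930, 224 bp from Ama (a cell adhesion gene), had 12.6 and 11.0 units in eluates, against 1.38 and 1.53 in inputs, and Ama averaged 1243 and 228. CR44718, 282 bp from Ir68a, had 96.2 and 149 units in eluates, against 10.8 and 21.4 in inputs, and Ir68a averaged 64.6 and 9.74.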
